A study of Mus musculus with 8 samples.

Results

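The genes described here encode molecular chaperones of the cytosol and the mitochondrion, with the transcription factor that induces many of them. They were chosen by name and number 10: *Hspa8*, *Hspa4*, *Hspa9*, *Hspd1*, *Hspe1*, *Hspb1*, *Dnaja1*, *Dnajb1*, *Bag3* and *Hsf1*, out of 21597 gene symbols on the array. They are represented by 23 probes, of which 22 passed the filter on low signal (a processed red signal of at least 25 on at least 4 of the 8 arrays). All 10 genes kept at least 1 probe. Expression was measured with arrays that read a red and a green dye in the pancreata of 8 individual 12-week-old female NOD (NOD/LtJ) mice, a strain that develops autoimmune diabetes. Each NOD mouse was labeled red (Cy5) and hybridized together with 1 pool of pancreas RNA from 8 age-matched female NOD.B10 (NOD.B10Sn-H2b/J) mice, labeled green (Cy3). NOD.B10 mice carry the NOD background with another H2 haplotype and do not become diabetic. The labels name no treatment of either strain. The pool is 1 RNA sample, so every p-value measures the spread between NOD mice and not between NOD.B10 mice. The dyes were not exchanged, and a dye effect at a probe cannot be told apart from a strain difference.

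Heat shock proteins bind unfolded polypeptides and use cycles of ATP binding to help them fold, or pass them on for degradation. The cytosolic HSP70 *Hspa8* does this with J-domain partners such as *Dnaja1* and *Dnajb1*, and with nucleotide exchange factors such as *Hspa4* and *Bag3*. *Hspa9* is the HSP70 of the mitochondrial matrix and has partners of its own there. *Hspd1* and *Hspe1* form the barrel and the lid of the mitochondrial chaperonin, and *Hspb1* is a small heat shock protein that holds unfolding proteins without using ATP. *Hsf1* is activated by unfolded protein in the cytosol and binds heat shock elements, inverted repeats of the unit GAA. The acinar cells of the pancreas secrete large amounts of protein and fold it in the endoplasmic reticulum (ER), which has chaperones of its own (*Hspa5*, *Hsp90b1*) under another stress pathway.

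The promoters are shown because the genes share a known regulator. RefSeq promoter windows (GRCm38.p6, 250 bases before to 50 after a transcription start, 300 in all) were found for 7 of the 10 genes. The heat shock element was searched in a long and a short form on both strands. The form with 3 units, TTCNNGAANNTTC or GAANNTTCNNGAA, is in 0.603% of all 32851 windows, and the form with 2 units, GAANNTTC or TTCNNGAA, which every 3-unit match also contains, is in 15.1%. The 3-unit form was found in 2 of the 7 genes, *Hspe1* and *Hspd1*. These genes lie head to head, and the match is the same stretch of DNA for both. The 2-unit form was also in *Dnaja1*, *Hspb1* and *Bag3*, in *Bag3* after the transcription start. No match was in the windows of *Dnajb1* and *Hspa4*. Below are 100 bases before the start (150 to 51 bases upstream), written 5′ to 3′ on the strand of the gene, with 2-unit matches in capitals. The *Hspe1* stretch is chr1:55087998-55088097 (plus strand), *Dnaja1* is chr4:40722318-40722417 (plus), and *Hspb1* is chr5:135887769-135887868 (plus). *Hspa1a*, the stress-inducible HSP70 gene that is used for comparison, is chr17:34972207-34972306 (minus).
Hspe1: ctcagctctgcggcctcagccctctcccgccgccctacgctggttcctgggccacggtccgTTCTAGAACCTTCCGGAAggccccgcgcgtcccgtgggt
Dnaja1: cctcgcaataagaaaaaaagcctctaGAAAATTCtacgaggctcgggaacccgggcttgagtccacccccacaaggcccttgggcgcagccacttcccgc
Hspb1: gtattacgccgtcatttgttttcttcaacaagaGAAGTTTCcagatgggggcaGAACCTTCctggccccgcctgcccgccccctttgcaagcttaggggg
Hspa1a: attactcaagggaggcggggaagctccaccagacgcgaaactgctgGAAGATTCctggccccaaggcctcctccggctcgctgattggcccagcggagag
The *Hspe1* run holds overlapping matches between 89 and 72 bases before the start. The *Hspb1* stretch holds a pair of separate matches between 117 and 90 bases before its start.

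Slide 1 carried the arrays of replicates 1 to 4, and slide 2 those of replicates 5 to 8. Red spots were noisier on slide 2, where their median coefficient of variation was 38.2% to 63.5%, compared to 16.1% to 24.8% on slide 1. On 3 arrays of slide 2, those of replicates 5, 6 and 7, the grid was not rated good by the software. Between 13060 and 15304 spots had red signal well above background on slide 1, and between 9375 and 14696 on slide 2. Acinar transcripts were abundant on every array (median red signal 752696 for *Ctrb1*). The labels do not say how mice were assigned to slides, and a difference between slides and a difference between the mice on them cannot be told apart.

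Values are log2 ratios of the NOD mouse over the pool, positive where NOD is higher. A gene is represented by its brightest probe, that with the highest log2 signal averaged over red and green. None of the 10 genes was called at the rule of the study, a change of at least 2-fold with an adjusted p under 0.01 (limma's one-sample moderated test, Benjamini-Hochberg over 28105 probes). Across all 18505 genes tested, 1.68% were called. The highest mean of the 10 genes was 0.64 (*Hspa9*) in the deposited ratios, 0.75 (*Hspa4*) with median-centered signals and 0.49 (*Dnaja1*) with normexp and loess. Of the 10, 6 had an unadjusted p under 0.05, compared to 35.8% of all genes. At an adjusted p under 0.05 with no minimum fold, 2 of the 10 were higher in NOD, *Hspa9* and *Hspa4*, and 0 were lower, compared to 6.97% of all genes higher and 14.3% lower. The mean was above 0 for all 10 genes as deposited, but for 7 after median centering and for 8 after normexp correction and loess. As deposited, it was above 0 for 6776 of the 18505 genes tested. Of the 6191 genes with red signal well above background on all 8 arrays, it was above 0 for 2880. The median of the means was 0.35 for the 10 genes, compared to -0.08 over all genes tested and -0.02 over those 6191.

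**Figure D1:**
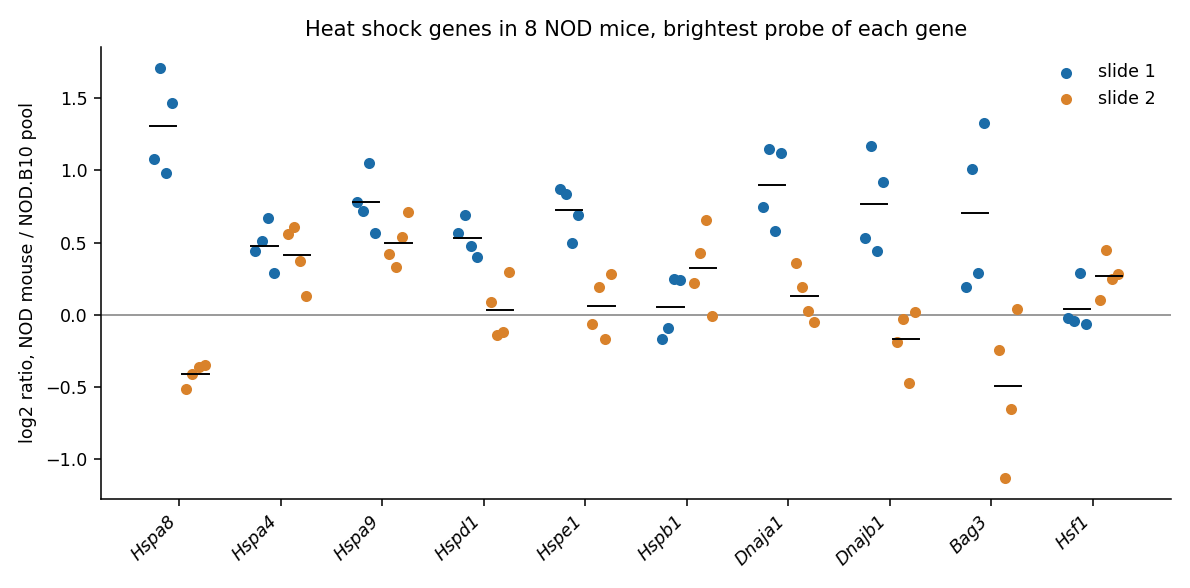
The log2 ratio of each NOD mouse over the NOD.B10 pool (y axis) is plotted for the brightest probe of each heat shock gene (x axis), 1 point a mouse, blue for the 4 mice on slide 1 and orange for the 4 on slide 2, with a black line at each slide's mean. In 6 of the 10 genes every blue point lies above every orange point, with the widest gap at *Hspa8*.

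*Hspa8* (Hsc70), the constitutive HSP70 of the cytosol, showed the largest difference between mice on the 2 slides. Its brightest probe (chr9:40555660-40555719, mm8) had log2 ratios of 1.08, 1.71, 0.98 and 1.47 in replicates 1 to 4. In replicates 5 to 8 they were -0.51, -0.41, -0.36 and -0.35. All mice on slide 1 were above the pool and all on slide 2 below it, and the overall mean of 0.45 ± 0.945 (SD, n = 8) did not pass the test (limma adjusted p = 0.364). With median-centered signals the mean was 0.21. The processed red signal was 21007 to 30900 on slide 1 and 6253 to 9901 on slide 2. The green signal of the pool ran from 7948 to 13127 over the 8 arrays. The slides differed by 1.72 ± 0.167 (SE), with an adjusted p of 0.0102 in limma's comparison of 4 with 4 arrays. The second probe of *Hspa8*, in the same gene at chr9:40554128-40554187, differed by 1.87 (adjusted p = 0.0189).

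*Hspa4* (Apg-2), an HSP110-type exchange factor that releases ADP from HSP70, was higher than the pool in all 8 mice at its brightest probe (chr11:53105844-53106357). The log2 ratios were 0.44, 0.51, 0.67 and 0.29 on slide 1 and 0.56, 0.61, 0.37 and 0.13 on slide 2, which overlap. The slide difference was 0.06 (adjusted p = 0.862), but -0.55 with median-centered signals, -0.37 with normexp and loess and 0.54 as the median over probes. The mean was 0.45 ± 0.179 (SD, n = 8; limma adjusted p = 0.00357), and in an exact sign-flip test over the 8 arrays p was 0.00781, the smallest this design allows. The call was lost with normexp and loess (0.36, adjusted p = 0.0642) and without the 3 arrays of slide 2 with a grid not rated good (0.41, adjusted p = 0.0546). Other probes of *Hspa4* did not follow it. The probe at chr11:53103268-53103327 had a mean of -0.19 and that at chr11:53124064-53124123 one of -0.54, with adjusted p-values of 0.519 and 0.201. Their red signal was lower (medians of 358 and 76.5, compared to 832), and the latter was well above background on 0 arrays in red. The fourth probe held red stand-in values on all 8 arrays and was not tested. The rise of *Hspa4* therefore rests on 1 probe.

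Among the mitochondrial chaperones, *Hspa9* (mortalin), the HSP70 that pulls proteins into the matrix, was higher in all 8 mice. Its brightest probe had log2 ratios of 0.78, 0.72, 1.05 and 0.57 on slide 1 and 0.42, 0.33, 0.54 and 0.71 on slide 2. The mean was 0.64 ± 0.227 (SD, n = 8; limma adjusted p = 0.00238), with the same sign-flip p of 0.00781 (exact). The adjusted p was 0.389 with median-centered signals (mean 0.25) and 0.378 with normexp and loess (mean 0.28), and the call was lost under both. The other *Hspa9* probe, with a median red signal of 1242 compared to 10993, was above the pool on slide 1 (0.66 to 1.15) and below it on slide 2 (-0.63 to -0.09). Its slides differed by 1.19 (adjusted p = 0.0240), while those of the brightest probe differed by 0.28 (adjusted p = 0.285), or by 0.98 with median-centered signals (adjusted p = 0.108) and 0.94 with normexp and loess (adjusted p = 0.0646).

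The subunits of the mitochondrial chaperonin had similar values to each other. *Hspd1* (HSP60, the barrel; chr1:55022530-55022589) had log2 ratios of 0.57, 0.69, 0.48 and 0.40 on slide 1 and of 0.09, -0.14, -0.12 and 0.30 on slide 2. *Hspe1* (HSP10, the lid; chr1:55035623-55035682), which shares the heat shock element printed above, had 0.87, 0.84, 0.50 and 0.69 on slide 1 and -0.06, 0.19, -0.17 and 0.28 on slide 2. For both genes the groups of 4 mice did not overlap. The means over all 8 mice were 0.28 ± 0.312 for *Hspd1* and 0.39 ± 0.396 for *Hspe1* (SD, n = 8), with limma adjusted p-values of 0.101 and 0.0793. With median-centered signals and with normexp and loess, the mean of *Hspd1* turned to -0.08 and -0.03 and that of *Hspe1* fell to 0.14 and 0.13. The slides differed by 0.67 ± 0.129 (SE) for *Hspe1* (adjusted p = 0.0482) and by 0.50 ± 0.116 for *Hspd1* (adjusted p = 0.0720). Under the same scalings these were 1.17 and 1.01 for *Hspe1*, and 1.16 and 1.08 for *Hspd1*, which passed under the latter (adjusted p = 0.0450). The *Hspe1* call lies just inside the threshold, and it was lost when any 1 of the 8 arrays was left out (adjusted p 0.0526 to 0.132). It was also lost with median-centered signals (adjusted p = 0.0667), the ratio of processed signals (0.0550), no filter (0.0608) and the plain statistic (0.0786). It was kept with normexp and loess (0.0280), array weights (0.0368) and red well above background on 4 arrays (0.0277). A dimmer *Hspd1* probe (median red signal 424) was at 0.14 to 0.44 on slide 1 and at -2.20 to -0.27 on slide 2.

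The J-domain partners of HSP70 varied within slide 1 as well as between slides. *Dnaja1*, a farnesylated cochaperone (chr4:40918944-40920399), had log2 ratios of 0.75, 1.15, 0.58 and 1.12 in replicates 1 to 4 and of 0.36, 0.19, 0.03 and -0.05 in replicates 5 to 8. *Dnajb1* (HSP40; chr8:86501866-86501925), which is strongly heat-inducible, had 0.53, 1.17, 0.44 and 0.92 on slide 1 and -0.19, -0.03, -0.47 and 0.02 on slide 2. In both genes replicates 2 and 4 had the highest values, and the slides did not overlap. The means were 0.52 ± 0.466 and 0.30 ± 0.566 (SD, n = 8), with limma adjusted p-values of 0.0565 and 0.319. *Dnaja1* passed 0.05 with median-centered signals (mean 0.65, adjusted p = 0.0153), with normexp and loess (0.49, adjusted p = 0.0221) and with array weights (0.61, adjusted p = 0.0269). The differences between slides were 0.77 ± 0.160 for *Dnaja1* and 0.93 ± 0.194 for *Dnajb1* (SE), with adjusted p-values of 0.0572 and 0.0567. With normexp and loess they were 0.42 and 0.82, and *Dnajb1* passed (adjusted p = 0.0493). A second *Dnaja1* probe (chr4:40922298-40922357) had a mean of 0.41 and its highest values, 1.17 and 1.08, in replicates 2 and 4. The third *Dnaja1* probe had red stand-in values on 7 arrays. The second *Dnajb1* probe, with a median red signal of 368 compared to 4231, had a mean of 0.07 and a slide difference of 0.05.

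*Bag3*, a stress-inducible exchange factor that directs HSP70 clients to autophagy, had log2 ratios of 0.19, 1.01, 0.29 and 1.33 on slide 1 and of -0.24, -1.13, -0.65 and 0.04 on slide 2 (chr7:128337915-128337974). Replicates 2 and 4 were again highest and the slides did not overlap, but the spread within a slide was wide (SD 0.553 and 0.509). The mean was 0.11 ± 0.810 (SD, n = 8; limma adjusted p = 0.834), and the slides differed by 1.20 ± 0.356 (SE; adjusted p = 0.132). With median-centered signals the mean turned to -0.38 and the slide difference was 2.02, which passed (adjusted p = 0.0376), while with normexp and loess the difference was 0.50 (adjusted p = 0.127). Its red signal was low, 207 to 1033, and well above background on 4 arrays. The other *Bag3* probe had a mean of -0.39 (adjusted p = 0.0950) and was lower on slide 1 than on slide 2 by a mean of -0.43.

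*Hspb1* (HSP25) and *Hsf1* did not separate by slide. *Hspb1* (chr5:136173684-136173871) ranged from -0.17 to 0.66 with a median of 0.23. The mean, 0.19 ± 0.277 (SD, n = 8; limma adjusted p = 0.201), turned to -0.36 with median-centered signals and to -0.31 with normexp and loess. Its slide difference was -0.27 (adjusted p = 0.460). A second probe under the symbol *Hspb1* is placed by the file on chromosome 13 (chr13:45092042-45092101), away from the gene, and held red stand-in values on 7 arrays. *Hsf1*, the heat shock transcription factor itself (chr15:76327357-76327417), ranged from -0.06 to 0.45, around a mean of 0.16 ± 0.188 (SD, n = 8), which did not pass (limma adjusted p = 0.136). The mean was 0.41 with normexp and loess. Its slide difference was -0.23 (adjusted p = 0.311). The other *Hsf1* probes had means of -0.20 and -0.23, below the pool in 7 of 8 mice each, so that the direction of *Hsf1* differed by probe. The signals of these probes also differed, with a median red signal of 14810 at the brightest compared to 897 and 259.

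**Figure D2:**
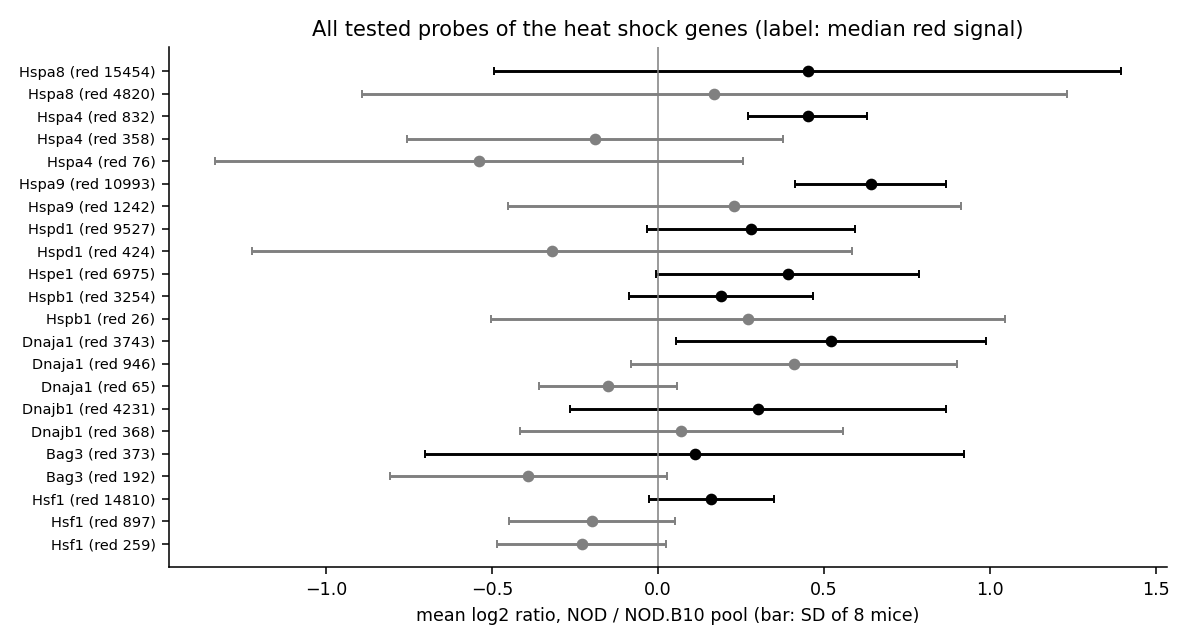
The mean log2 ratio of NOD over the pool (x axis) with the SD of 8 mice (bars) is shown for each of the 22 tested probes (y axis, labeled with the gene and the median processed red signal), black for the brightest probe of a gene and grey for the others. All 10 black points lie above 0, while 7 of the 12 grey points lie below it.

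Of the 12 other tested probes, which belong to 9 of the genes, 5 had means above 0 and 7 below, and 0 passed an adjusted p of 0.05 in limma against the pool. The other probes of *Hspa4*, *Hspd1*, *Bag3* and *Hsf1* had means below 0, while the second probes of *Hspa8*, *Hspa9*, *Dnaja1* and *Dnajb1* had means above 0. In the comparison of slides, 2 of the 12 passed, both higher on slide 1 (the second probes of *Hspa8* and *Hspa9*). Of all genes at their brightest probe, 1.85% were called higher on slide 1. In 3 of the 12 all values of slide 1 were above all values of slide 2, compared to 6.93% of all genes.

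By slide, 2 of the 10 genes were called at an adjusted p under 0.05, *Hspa8* and *Hspe1*, both higher in the mice on slide 1. Across all genes tested, 1.85% were higher and 1.99% lower on slide 1 by this rule. The 4 values of slide 1 were all above the 4 of slide 2 in 6 of the 10 genes (*Hspa8*, *Hspd1*, *Hspe1*, *Dnaja1*, *Dnajb1* and *Bag3*), compared to 6.93% of all genes. Among the 6191 genes whose red signal was well above background on all 8 arrays, the share was 11.8%. *Bag3* is not among these 6191, and the other genes of the 10 are. Such a full separation fixes the exact permutation p over the 70 splits of 4 against 4 at 0.0286, the smallest this design allows. This p is unadjusted, follows from the way these 6 genes were picked, and adds nothing to the count. The median slide difference of the 10 genes was 0.59, compared to 0.00 over all genes. Without the 3 arrays with a grid not rated good, which leaves 1 array on slide 2 that is assumed to vary like the others, the count of called genes was 0, with *Hspa8* at 1.66 (adjusted p = 0.105).

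Taken on its own, slide 1 had 6 of the 10 genes higher than the pool at an adjusted p under 0.05 (6.64% of all genes), with means of 1.31 for *Hspa8*, 0.90 for *Dnaja1*, 0.78 for *Hspa9*, 0.72 for *Hspe1*, 0.54 for *Hspd1* and 0.48 for *Hspa4*. Slide 2 on its own had 0 of the 10 (0.838% of all genes), and *Hspa8* there had a mean of -0.41 with an adjusted p of 0.0507. These counts come from fits of 4 arrays each, and the difference between them is tested only by the comparison of slides above.

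In the 6 genes whose slides did not overlap, red signal of the NOD mice differed more between slides than green signal of the common pool. For *Hspa8* the processed red signal differed by 1.71 (log2, slide 1 minus slide 2) and the green signal by -0.01. For *Dnajb1* these were 1.04 and 0.10, for *Dnaja1* 0.83 and 0.06, for *Hspe1* 0.79 and 0.12, and for *Hspd1* 0.70 and 0.20. For *Hspb1*, whose slides overlapped, green differed more (0.17) than red (-0.10). Over the 10 genes the green difference ranged from -0.12 to 0.30. The red dye also had the larger coefficients of variation on slide 2, and the part of this in the results was not tested.

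**Figure D3:**
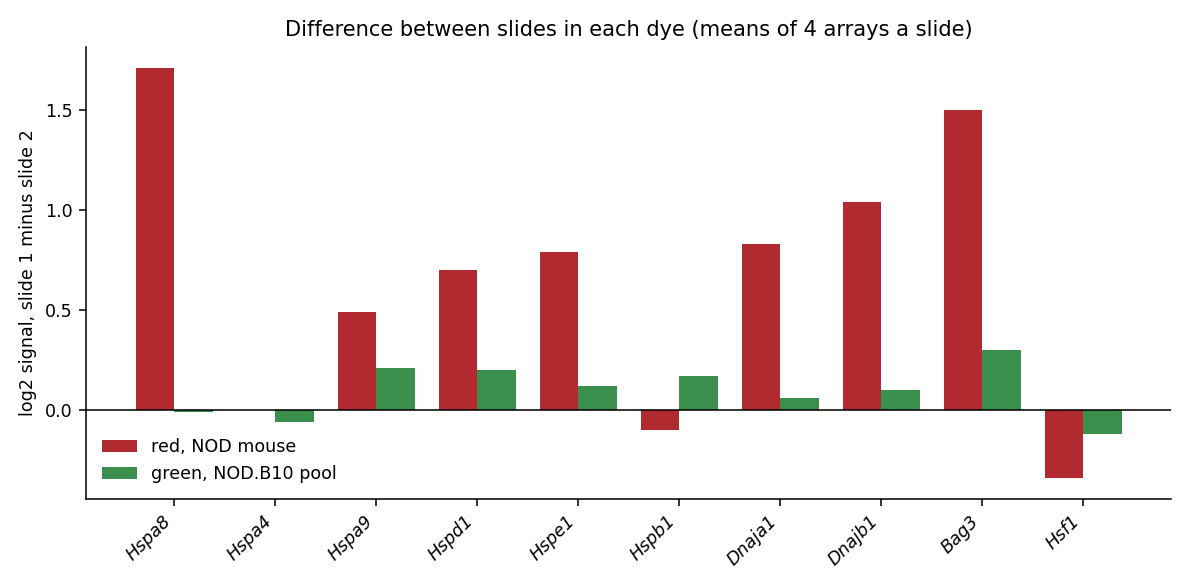
Bars show the mean log2 processed signal of slide 1 minus that of slide 2 (y axis, 4 arrays a slide) for each heat shock gene (x axis), red for the NOD mice and green for the NOD.B10 pool. The red bar reaches 1.71 at *Hspa8*, and no green bar exceeds 0.30.

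The ER chaperones, a list of 21 genes that were all tested, separated by slide in the same direction. The list has 12 genes called higher on slide 1 and 1 lower (*Fkbp2*, a prolyl isomerase, at -0.54), compared to 1.85% and 1.99% of all genes. These 13 calls fell to 6 with median-centered signals, to 7 with normexp and loess and to 1 without the 3 arrays with a grid not rated good. In 13 of the 21 all values of slide 1 were above those of slide 2. This held for 6.93% of all genes and for 11.8% of those with red signal well above background on all 8 arrays. Differences reached 2.87 ± 0.263 (SE; adjusted p = 0.00921) for *Creld2*, a secreted ER stress gene, and 2.78 ± 0.191 (adjusted p = 0.00516) for the disulfide isomerase *Pdia4*. *Hsp90b1* (GRP94) differed by 2.24, *Hyou1* (the HSP110 of the ER) by 2.13 and *Hspa5* (BiP, the HSP70 of the ER) by 1.91, with adjusted p-values of 0.0102, 0.00921 and 0.0132. *Hspa5* had log2 ratios of 1.46, 1.62, 1.07 and 0.94 on slide 1 and of -0.94, -0.63, -0.19 and -0.77 on slide 2. The other called differences above 0 ran from 0.47 (*Canx*) to 1.36 (*Calr*, calreticulin). Of the main HSP70 genes, that of the ER (*Hspa5*) thus differed by 1.91, that of the cytosol (*Hspa8*) by 1.72 and that of the mitochondrion (*Hspa9*) by 0.28 at the brightest probe. The *Hspa9* value rose to 0.98 with median-centered signals and to 0.94 with normexp and loess, where *Hspa8* was at 2.10 and 2.04, so the size of this contrast is not settled. The median slide difference was 0.78 for the ER list and 0.59 for the 10 heat shock genes. With median-centered signals the order of these medians turned (0.55 and 1.00), and likewise with normexp and loess (0.56 and 0.66), so no order between the lists can be drawn.

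Against the pool, 0 of the 21 ER chaperones were called by the rule of the study in limma, and 0 with the plain statistic. An unadjusted p under 0.05 was reached by 5 of the 21, compared to 35.8% of all genes. At an adjusted p under 0.05, *Canx* (calnexin, mean 0.52) and *P4hb* (a disulfide isomerase, 0.32) were higher and *Sil1* (an exchange factor of BiP, -0.34) and *Fkbp2* (-0.46) were lower. These are 2 higher and 2 lower of the 21, compared to 6.97% and 14.3% of all genes. A dimmer *Canx* probe was at -0.17 and did not pass. *Hsp90b1* had the highest mean of the list, 0.72 ± 1.23 (SD, n = 8; adjusted p = 0.270). *P4hb* was above the pool in all 8 mice, with a slide difference of -0.03. Per array, the median of the 10 heat shock genes was 0.49 to 0.78 on slide 1 and -0.04 to 0.19 on slide 2. The median of the ER list was 0.33 to 0.74 on slide 1 and -0.35 to -0.21 on slide 2, so that of these 2 lists the ER list was below 0 on every array of slide 2.

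**Figure D4:**
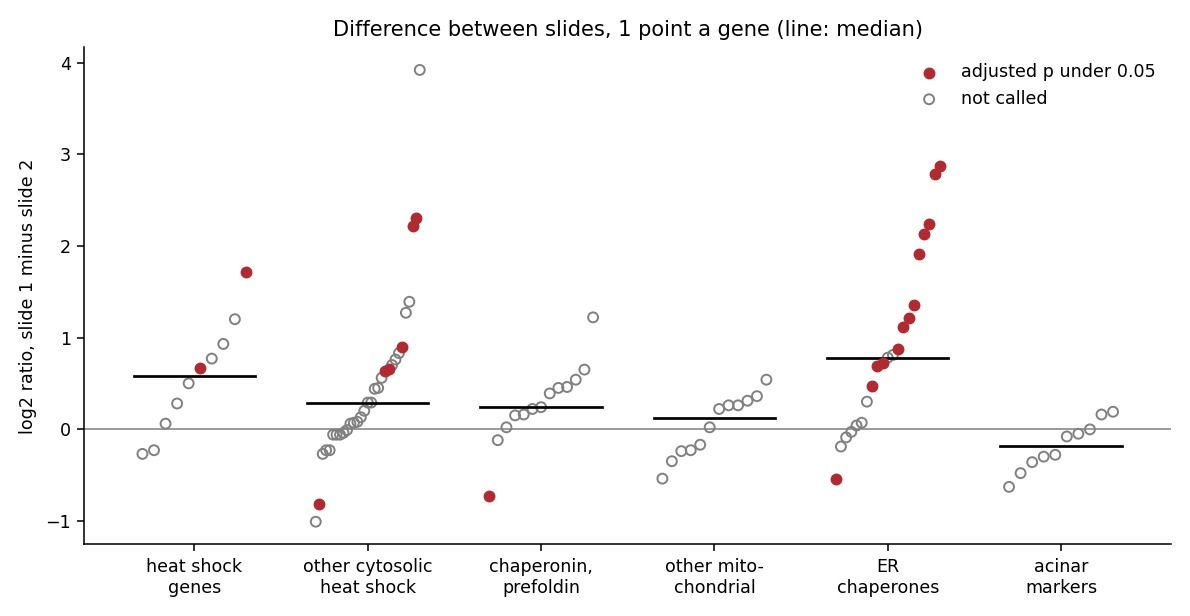
Each point is a gene, plotted by its log2 ratio on slide 1 minus that on slide 2 (y axis) within its list (x axis), filled red where the adjusted p is under 0.05, with a black line at the list's median. The ER list and the heat shock genes have medians of 0.78 and 0.59, and the acinar markers one of -0.18.

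Among 31 other cytosolic and nuclear heat shock genes and cofactors, all tested, 5 were called higher on slide 1 and 1 lower (1.85% and 1.99% of all genes). All values of slide 1 were above those of slide 2 in 10 of the 31 and below them in 1. Over all 18505 genes this held for 1283 and 1372. *Hsp90aa1*, the inducible cytosolic HSP90, differed by 2.30 (adjusted p = 0.00699) and *Hsph1*, the inducible HSP110, by 2.22 (adjusted p = 0.0222). *Dnajb4*, a J-domain protein, differed by 0.90, the HSP90 cochaperone *Ahsa1* by 0.66, and *St13*, which binds HSP70, by 0.63. *Cryab*, a small heat shock protein like *Hspb1*, was lower on slide 1 by -0.82 (adjusted p = 0.0339) at its brightest probe. Its other probe differed by 0.22 (adjusted p = 0.797) and was below the pool in all 8 mice (-0.88, adjusted p = 0.0148). Against the pool, where 6.97% of all genes were higher and 14.3% lower, 3 of the 31 were higher at an adjusted p under 0.05 (*Hspa1l* 0.57, *Cdc37* 0.23, *Dnajb6* 0.19) and 2 lower (*Hspb6* -0.88 and *Dnajb5* -0.83, both with red signal well above background on 0 arrays). The *Hspa1l* probe (chr17:34586740-34586799) lies near that of *Hspa1a* (chr17:34577877-34577936) in the H2 complex. The strains carry different haplotypes there, and an effect of probe mismatch was not tested. Other probes of *Cdc37* (-0.21) and *Dnajb6* (-0.04 and -0.20) had means below 0 and did not pass. The lowest genes with red signal well above background on at least 4 arrays were *Hspb8* (-0.28) and *Bag2* (-0.19), which did not pass.

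*Hspa1a* varied widely within slide 1. Its log2 ratios were 1.20, 4.46, 1.21 and 4.31 in replicates 1 to 4, where red signal was well above background. In replicates 5 to 8 they were -1.26, -1.43, -0.74 and -1.08, but on these 4 arrays red did not rise above background and was replaced by a stand-in, so no size is read from them. Its processed red signal was 4044 in replicate 2 and 3558 in replicate 4, 302 and 329 in replicates 1 and 3, and 62.4 to 88.6 on slide 2. The difference between slides did not pass the test (adjusted p = 0.0679), and its size depends on the stand-in values. A second probe under the same symbol gave 4.08 and 3.43 in replicates 2 and 4. *Hspa1a* and *Hspa1b* are near-identical copies within the H2 complex, where the strains carry different haplotypes, so that neither the source of the signal nor an effect of probe mismatch was tested.

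**Figure D5:**
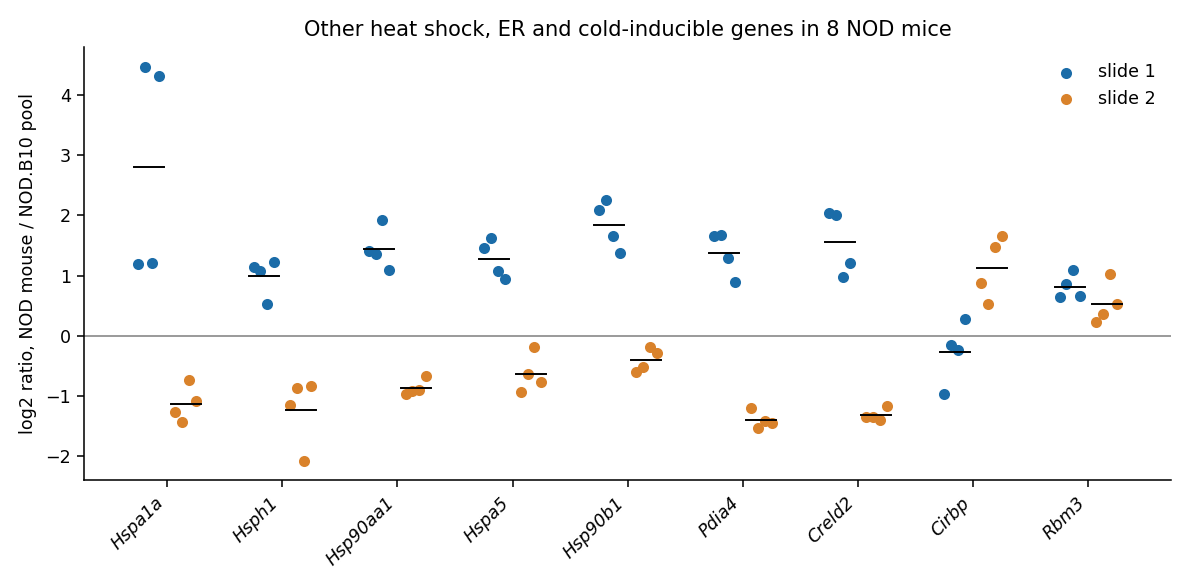
The log2 ratio of each NOD mouse over the pool (y axis) is plotted for cytosolic heat shock genes (*Hspa1a*, *Hsph1*, *Hsp90aa1*), ER chaperones (*Hspa5*, *Hsp90b1*, *Pdia4*, *Creld2*) and the cold-inducible *Cirbp* and *Rbm3* (x axis), in blue for slide 1 and orange for slide 2 with black lines at the means. *Hspa1a* reaches 4.46 and 4.31 in replicates 2 and 4, its orange points rest on red stand-in values, and *Cirbp* is the gene here whose orange points lie above the blue.

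*Cirbp*, an RNA-binding gene that falls with heat and rises with cold, went the other way, with log2 ratios of -0.97, -0.16, -0.23 and 0.28 on slide 1 and 0.87, 0.52, 1.47 and 1.66 on slide 2. Its slide difference of -1.40 had an adjusted p of 0.0894. *Rbm3*, the other cold-inducible gene of the list, was higher than the pool in all 8 mice (mean 0.68 ± 0.306, SD, n = 8; limma adjusted p = 0.00523) and differed between slides by 0.28 (adjusted p = 0.496). Its other probe had red stand-in values on 7 arrays.

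In the cytosolic chaperonin and prefoldin list, 13 of 14 genes were tested. Against the pool (6.97% of all genes higher, 14.3% lower), 4 were higher at an adjusted p under 0.05 (*Vbp1* 0.38, *Cct2* 0.32, *Cct5* 0.32 and *Tcp1* 0.26) and 1 lower (*Pfdn1*, -0.87). Dimmer probes of *Tcp1* (-0.62) and *Cct2* (-0.20) had means below 0 and did not pass. By slide 0 were called higher and 1 was called lower, *Pfdn6* (-0.73, adjusted p = 0.0112), a gene of the H2 complex. All values of slide 1 were above those of slide 2 in 6 of the 13 and below them in 1. Over all 18505 genes this held for 1283 and 1372. The median slide difference of the list was 0.24. *Cct3*, at -0.64, did not pass. Among 12 other mitochondrial chaperones and proteases, set against the same shares, 1 was higher against the pool (*Dnaja3*, the mitochondrial J-domain partner of *Hspa9*, 0.43 at its brightest probe) and 3 were lower (*Hscb* -0.63, *Trap1* -0.30 and *Clpp* -0.20). A dimmer *Dnaja3* probe, with red signal well above background on 1 array, was below the pool in all 8 mice (-0.47, adjusted p = 0.0175), so that its direction differed by probe. *Grpel2*, an exchange factor of *Hspa9*, was at 0.24 and did not pass. By slide 0 of the 12 were called, 1 had all values of slide 1 above those of slide 2, and their median difference was 0.12.

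Whole pancreas holds several cell types, and in such tissue fewer cells of a type and less RNA per cell cannot be told apart. The counts that follow, at an adjusted p under 0.05, stand against 6.97% of all genes higher and 14.3% lower in NOD. Of 10 acinar markers tested, 2 were higher in NOD (*Ctrb1* 0.54 and *Pnlip* 0.45), with *Cela3b* lowest at -0.18 and *Cela1* at -0.09, and 0 were called by slide. Of 12 leukocyte markers, 5 were higher in NOD, namely *Lck* (2.30), *Cd3d* (2.07), *Itgax* (1.56), *Ptprc* (1.46) and *Cd3e* (0.61), and 0 were called by slide. A dimmer *Itgax* probe, with red signal well above background on 0 arrays, was at -0.78 (adjusted p = 0.0200). *Emr1* (-0.02) and *Cd68* (0.05), both macrophage genes, were the lowest of those with red signal well above background on at least 4 arrays. Of 9 islet markers tested, 1 was lower (*Pdx1*, -0.70), with *Gcg* at -0.70, *Nkx6-1* at -0.75, *Iapp* at 0.10 and *Sst* at -0.08, and 0 were called by slide. Per array, the median of the acinar list lay between -0.02 and 0.34, that of the leukocyte list between 0.00 and 1.59 and that of the islet list between -1.70 and 0.13. The median slide differences of these lists were -0.18, 0.39 and -0.20. Their part in the values of the heat shock genes was not tested.

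After the mean of each slide had been subtracted, the genes whose values across the 8 arrays were most like the mean of the 9 heat shock genes with red signal well above background on all arrays (without *Bag3*) were *Rae1* (r = 0.934), *Tm9sf2* (0.921), *Madd* (0.909), *Rpap1* (0.903) and *Tmem160* (0.896), out of 6182 genes. These are Pearson correlations over 8 arrays that share the pool, picked as the highest of 6182 and given as a description. A search of this size over few arrays can return high values by itself, and they were not tested.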

How the data were processed

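Pancreas RNA of 8 NOD mice was compared to 1 NOD.B10 pool on Agilent arrays with probe positions on mm8. The deposited log10 ratio of every spot was computed by the authors with Feature Extraction (version 10.7.3.1) as red over green. The deposited intensity of either dye was processed by the authors with the same software, by subtraction of background, detrending over the surface and dye normalization (linear and lowess), with stand-in values where a signal did not rise above background. Here the ratios were multiplied by 3.32 to give log2 ratios, and spots of a probe averaged. Of 34850 probes with a symbol, 28105 passed the filter (red processed signal of at least 25 on 4 arrays) and were tested with limma (version 3.58.1) in R 4.3.3, against 0 (one-sample moderated test) and between the slides. Exact tests were sign flips of 8 arrays (256) and splits of 4 against 4 (70), all two-sided. On simulated data with 200 probes changed 3-fold, the pool test recovered 76.5% with 0 false calls, and the slide test 51.0% with 11. The simulated noise was independent between probes and arrays, without effects shared by a slide, so these rates need not hold for the real arrays. Files were read with data.table (1.17.8). Python 3.11.15 with pandas 2.3.3, numpy 2.4.6 and matplotlib 3.10.9 made the lists and plots.

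Older symbols of the same gene were accepted (*Hsph1* is Hsp110 on the array). The number of arrays limits the precision. The 10 genes, the lists and the tests were chosen with earlier results of these data known. Named are all 10 genes, and of each other list the genes called, the 2 highest and the 2 lowest means with red signal well above background on 4 arrays, and the 5 genes most alike. *Hspa5*, *Hsp90b1*, *Hyou1*, *Pdia4*, *Creld2* and the other called ER genes fall under this rule, with an adjusted p under 0.05 in either comparison counted as called. Alternatives were the ratio of processed signals, background-subtracted signals centered on each array's median (median-centered), normexp background correction (offset 50) with loess, no filter, red well above background on 4 arrays, the plain statistic, array weights, each mouse left out, other thresholds, slide as a covariate, each slide alone and other probes. Chosen after seeing the data were the fits without the 3 arrays with a grid not rated good, the fits of each dye by slide, and the ER chaperones by slide. Exon and UTR annotation of mm8 and probe sequences were not used here.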

Additional observations from a re-analysis of the deposited data

Results flagged for a closer look

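In a screen of the 22 tested probes for a mouse far from the other 7 (Dixon's test, which flags about 1 in 20 by chance), 2 stood out. The *Hspb1* probe placed on chromosome 13 was at 2.19 in replicate 6 and at 0.00 in the others, with stand-in values on most arrays. The dim *Dnaja1* probe was at -0.59 in replicate 3.

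The mice on slide 1 differed from those on slide 2 at an adjusted p under 0.05 in *Hspa8* (1.72, log2) and *Hspe1* (0.67). Among the ER chaperones they differed in *Hspa5* (1.91), *Hsp90b1* (2.24), *Hyou1* (2.13), *Calr* (1.36), *Canx* (0.47), *Pdia3* (1.21), *Pdia4* (2.78), *Pdia6* (0.69), *Dnajb11* (0.72), *Creld2* (2.87), *Manf* (1.12), *Serpinh1* (0.87) and *Fkbp2* (-0.54). All but *Fkbp2* were higher on slide 1, and slide and mouse cannot be told apart.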

How the results depend on the processing

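Against the pool, the count of heat shock genes called by the rule of the study stayed at 0 except for 1 at 1.5-fold, and that of ER chaperones at 0 except for 1 with median-centered signals. At an adjusted p under 0.05 the 2 heat shock genes became 1 with normexp and loess, 4 with red well above background on 4 arrays, 4 with array weights, 6 with slide as a covariate, 6 on slide 1 alone and 0 on slide 2 alone, and 2 to 3 with 1 mouse left out. The 4 ER chaperones became 8 with slide as a covariate, 13 on slide 1 alone, 2 without the 3 arrays with a grid not rated good, and 2 to 4 with 1 mouse left out. By slide, the 2 heat shock genes became 4 with normexp and loess, 4 with red well above background on 4 arrays, 1 without a filter, 1 with the plain statistic, 0 without the 3 arrays, 0 at an adjusted p under 0.01, and 1 to 2 with 1 mouse left out. The 13 ER chaperones became 6 with median-centered signals, 7 with normexp and loess, 1 without the 3 arrays, 3 at an adjusted p under 0.01, and 9 to 12 with 1 mouse left out. With median-centered signals the 2 heat shock genes called by slide were *Hspa8* and *Bag3*, the latter in place of *Hspe1*. Fits on 1 slide or without arrays rest on fewer samples. The cause of the other changes was not tested.

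Single genes changed sign as follows (log2). On slide 2 alone *Hspa8* was at -0.41, *Dnajb1* at -0.17 and *Bag3* at -0.49. With the median over all probes, *Hspa4* was at -0.19, *Hspd1* at -0.02, *Bag3* at -0.14 and *Hsf1* at -0.20. With median-centered signals and with normexp and loess, *Hspd1* was at -0.08 and -0.03, *Hspb1* at -0.36 and -0.31, and *Bag3* at -0.38 with the former. *Bag3* was at -0.02 without replicate 2 and -0.07 without replicate 4, in a range of -0.07 to 0.28 with 1 mouse left out. The slide difference of *Hspa4* (0.06) was -0.55 and -0.37 under those scalings, and -0.04 to 0.12 with 1 mouse left out, below 0 without replicate 3 (-0.01) or 8 (-0.04). The slide difference of *Hspb1* (-0.27) was 0.53 and 0.35 under those scalings and 0.06 without the 3 arrays. Under those scalings the slide difference of *Hspe1* was 1.17 and 1.01, that of *Hspd1* 1.16 and 1.08, that of *Dnaja1* 0.55 and 0.42, and that of *Bag3* 2.02 and 0.50. The median of all genes moved by 0.11 under the ratio of processed signals by slide, to -0.11. No paired analysis was possible because the replicate numbers name mice of 1 group.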
